A study of Mus musculus with 3 samples.

Results

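The MAP kinase cascade genes examined here were the protein-coding genes of the GENCODE M1 annotation of the mouse genome (build mm9) whose symbol is Map4k, Map3k, Map2k or Mapk followed by a number. The rule gave 40 of 22208 protein-coding genes on the 20 chromosomes that held a region. They comprise 5 MAP4K, 15 MAP3K, 7 MAP2K and 13 MAPK genes. The data were chromatin immunoprecipitation sequencing (ChIP-seq) of natural killer cells (NKC) from the spleen of wild-type ICR mice, taken freshly isolated and therefore called resting. Each of 3 samples used a different reagent for the precipitation. These were antibodies to Runx3, a DNA-binding factor of the Runx family, and to H3K4me1 (monomethyl lysine 4 of histone H3, a mark of enhancers and of promoter flanks), and non-immune rabbit serum (NIS) as the control. The NIS sample had no list of its own among those analysed and entered only through the peak calling of the authors. The processed data were 1 list of 15524 Runx3 peaks and 1 list of 49902 H3K4me1 regions, as coordinates without heights, so a gene either held a peak or did not and binding strength was not measured. There was 1 list per antibody, no spread between replicates could be computed, and no significance test between conditions was possible. The 95% intervals given below are Wilson intervals that cover counting error over genes or peaks only, and genes are not replicates of one another.

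A MAP kinase cascade relays a signal through successive kinases, each of which phosphorylates the next. MAP4K proteins sit closest to receptors and small G proteins, and MAP3K proteins phosphorylate MAP2K proteins. MAP2K proteins phosphorylate the conventional MAPK proteins on a threonine and a tyrosine. The conventional final kinases form the ERK, JNK, p38 and ERK5 branches, and Mapk4, Mapk6 and Mapk15 are counted here as atypical. In NK cells the ERK and p38 branches act downstream of activating receptors in the release of cytotoxic granules and the production of interferon gamma. Genes of NK cells served as a check of the label. Each of 8 NK cell genes (Ncr1, Klrb1c, Klrk1, Itga2, Eomes, Tbx21, Prf1 and Gzma) held 2 to 6 Runx3 peaks, and H3K4me1 covered a median of 73.1% of their windows. Runx3 peaks lay at 2 of 6 T cell genes (Cd3e and Cd3d with 1 each), at 2 of 4 B cell genes (Cd79a and Pax5 with 2 each) and at 1 of 4 myeloid genes (Itgam with 4, a gene that NK cells also express). H3K4me1 covered medians of 8.92%, 8.46% and 13% of the T, B and myeloid windows. Within the T cell genes the values spread widely, since H3K4me1 covered 80.3% of the Cd3d window and 58.6% of the Cd3g window, 14.2% at Cd3e and 3.67% at Cd4. Cd8a, Cd8b1, Ms4a1 (the gene of CD20) and Lyz2 had neither a peak nor an H3K4me1 region. The part of other cells in the results was not tested.

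Each gene was examined in a window of the gene with 5 kb on either side. In these windows 25 of 40 cascade genes held at least 1 Runx3 peak (62.5%, interval 47 to 75.8%), against 39.8% of all protein-coding genes. At least 2 peaks were found at 13 cascade genes (32.5%), against 15.3% of all genes, and 3 or more at 6 (15%), against 6.11%. A peak with its midpoint under 1 kb from one of the gene's own transcription start sites (TSSs) was found at 16 (40%, interval 26.3 to 55.4%), against 27.3%. The interval for any peak lay above the share of all genes, and the interval for start peaks included it. H3K4me1 was present at 37 of 40 (92.5%, interval 80.1 to 97.4%), against 67.8% of all genes, and 3 (7.5%) had neither a peak nor an H3K4me1 region, against 32%. An H3K4me1 region of 10 kb or more reached into the window of 5 cascade genes (12.5%), against 3.86%. The median share of the window covered by H3K4me1 was 20.3% (interquartile range 8.7 to 34.9%) against 8.01% for all genes. Among genes with H3K4me1 only, 25 of 37 cascade genes (67.6%, interval 51.5 to 80.4%) and 58.5% of 15061 genes held a Runx3 peak, and this interval includes the share of the whole.

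Cascade genes are long, with a median window of 62.4 kb, against 25.5 kb for all protein-coding genes. Over all genes the share with a peak rose from 19.5% in windows under 15 kb to 45.8% at 20 to 30 kb. In longer windows it lay between 43.7% and 54%. The shares were therefore also read within quartiles of window length, and the part of length in the difference was not tested. No cascade gene fell in the shortest quartile (10.1 to 14.7 kb), in which 19.2% of all genes held a peak. In the second quartile (14.7 to 25.5 kb) 4 of 10 cascade genes held a peak (40%, interval 16.8 to 68.7%), against 40.9% of all genes. In the third (25.5 to 52.6 kb) the count was 7 of 9 (77.8%, interval 45.3 to 93.7%), against 48.9%, and in the longest (52.7 to 4445 kb) 14 of 21 (66.7%, interval 45.4 to 82.8%), against 50.4%. In each quartile with cascade genes their interval thus included the share of all genes. At 9 to 21 genes these intervals are wide, and in the third and longest quartiles the cascade share was the higher. For H3K4me1 the counts were 10 of 10, 8 of 9 and 19 of 21, against 70.8%, 80.2% and 81.6% of all genes. The median share of the window that H3K4me1 covered was 32%, 25.4% and 9.22% in the cascade genes of these quartiles and 15.2%, 10.5% and 5.2% in all genes.

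**Figure D1:**
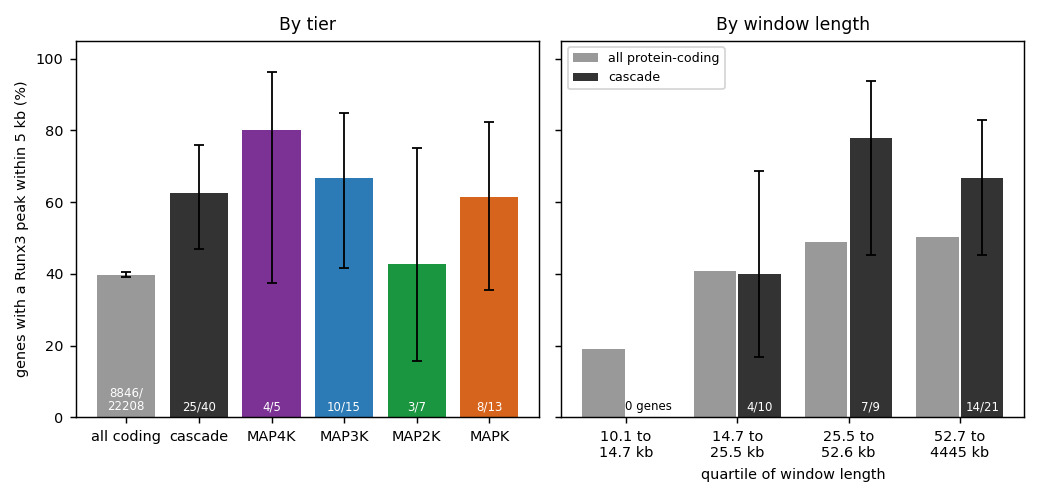
Share of genes (%, vertical axis) with at least 1 Runx3 peak within 5 kb, for all protein-coding genes, all cascade genes and each tier (left), and by quartile of window length in kb (right, grey for all genes and black for cascade genes). Bars are drawn from 0, whiskers are 95% Wilson intervals, and counts stand at the foot of the bars. Cascade genes stood at 62.5% against 39.8%. In each length quartile with cascade genes the whiskers, over 9 to 21 genes, included the grey bar.

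By tier, a Runx3 peak lay at 4 of 5 MAP4K genes (80%, interval 37.6 to 96.4%), 10 of 15 MAP3K genes (66.7%, interval 41.7 to 84.8%), 3 of 7 MAP2K genes (42.9%, interval 15.8 to 75%) and 8 of 13 MAPK genes (61.5%, interval 35.5 to 82.3%). The 39.8% of all protein-coding genes lay within the intervals of the MAP4K, MAP2K and MAPK tiers and below that of the MAP3K tier. The tiers were not read within length quartiles. The intervals of all 4 tiers overlap, and differences between tiers were not tested. H3K4me1 was present at 5 of 5, 13 of 15, 7 of 7 and 12 of 13 genes of the tiers and covered a median of 25.4%, 19.5%, 11.5% and 27.3% of their windows. The tiers held 8, 16, 7 and 16 peaks, 47 in all, and no peak lay in the windows of 2 cascade genes. A start peak was present at 2 of 5 MAP4K, 6 of 15 MAP3K, 2 of 7 MAP2K and 6 of 13 MAPK genes, against 27.3% of all genes.

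**Figure D2:**
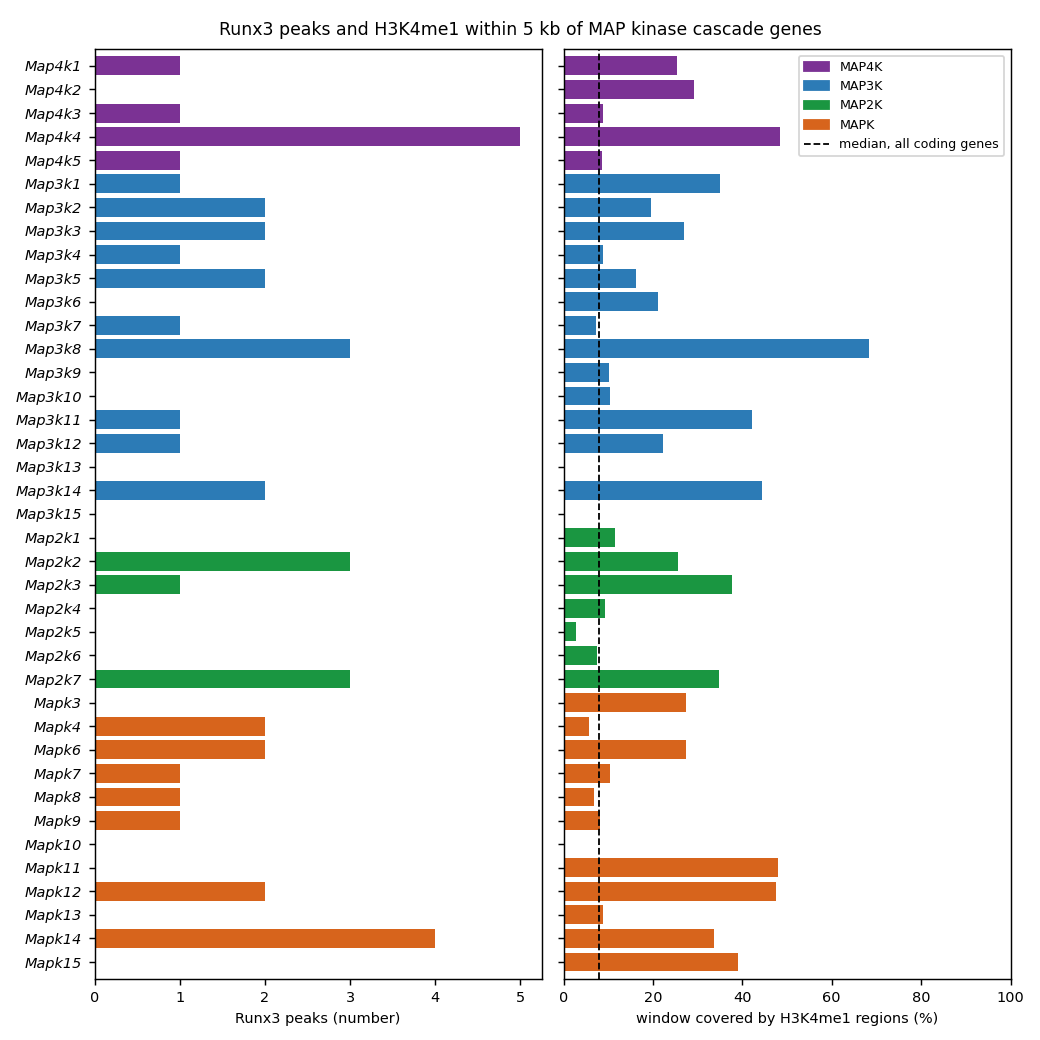
Number of Runx3 peaks (left) and share of the window covered by H3K4me1 regions in % (right) for 39 cascade genes, coloured by tier, from 1 list per antibody. Map4k4 had the most peaks (5) and Map3k8 the largest covered share (68.3%), and the dashed line marks the median of all protein-coding genes (8.01%).

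The sequences at the centres of peaks of the leading genes are shown because they are the DNA under the peaks that the counts rest on. For each tier they come from the gene with the most peaks whose sequence could be printed, at the widest peak by its own start or otherwise at the widest peak, and they show up to 300 bases around the peak's midpoint without annotated untranslated bases. They are mm9 sequences of the plus strand. Capitals mark matches to the RUNX consensus, searched on both strands as the word TGTGGT, its form TGTGGC with a final C, the form TGCGGT with an inner C and the form TGCGGC with both. Of all 15524 peaks, 79.4% held such a match in the 300 bases around the midpoint, and of the 47 peaks at cascade genes 36 (76.6%) did. The start peak of Map2k7 is not shown because its centre lies in annotated untranslated sequence. For Map4k4 the centre held 0 matches, and the 300 bases of the same peak with the most matches, chosen after the values were seen, follow it.
Map4k4 centre of the widest peak, chr1:40043412-40043711: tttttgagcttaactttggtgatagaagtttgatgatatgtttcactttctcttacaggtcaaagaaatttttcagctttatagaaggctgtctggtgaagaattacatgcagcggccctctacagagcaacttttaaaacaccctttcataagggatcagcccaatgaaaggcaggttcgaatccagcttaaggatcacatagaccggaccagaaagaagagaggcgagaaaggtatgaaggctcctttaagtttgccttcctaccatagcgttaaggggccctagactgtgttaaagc
Map4k4 stretch with the most matches, chr1:40042973-40043272: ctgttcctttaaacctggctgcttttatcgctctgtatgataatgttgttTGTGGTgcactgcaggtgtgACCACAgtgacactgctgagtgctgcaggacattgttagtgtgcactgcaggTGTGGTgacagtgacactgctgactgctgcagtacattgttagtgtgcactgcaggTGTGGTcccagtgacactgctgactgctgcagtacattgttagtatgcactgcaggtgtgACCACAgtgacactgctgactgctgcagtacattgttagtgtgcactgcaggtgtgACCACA
Map3k3 start peak, chr11:105945473-105945772: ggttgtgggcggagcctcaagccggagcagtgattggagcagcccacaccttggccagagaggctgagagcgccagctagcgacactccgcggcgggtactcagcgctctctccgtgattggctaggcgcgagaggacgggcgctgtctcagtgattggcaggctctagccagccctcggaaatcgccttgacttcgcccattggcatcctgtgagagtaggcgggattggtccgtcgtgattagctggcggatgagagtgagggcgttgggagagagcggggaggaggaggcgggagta
Map3k14 start peak, chr11:103128787-103129086: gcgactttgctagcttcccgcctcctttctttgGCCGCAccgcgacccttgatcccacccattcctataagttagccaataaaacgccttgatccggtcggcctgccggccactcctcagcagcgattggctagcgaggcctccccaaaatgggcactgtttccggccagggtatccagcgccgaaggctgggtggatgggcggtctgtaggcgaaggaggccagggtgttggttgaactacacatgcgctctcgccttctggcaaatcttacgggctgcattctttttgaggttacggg
Map3k5 widest peak, chr10:19839299-19839598: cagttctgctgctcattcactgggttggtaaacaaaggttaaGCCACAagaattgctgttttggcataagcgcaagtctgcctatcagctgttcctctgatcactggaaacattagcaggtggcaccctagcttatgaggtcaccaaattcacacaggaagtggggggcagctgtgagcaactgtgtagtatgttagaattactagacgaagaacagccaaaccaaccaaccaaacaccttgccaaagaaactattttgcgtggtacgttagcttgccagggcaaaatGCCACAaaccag
Map2k2 start peak, chr10:80568401-80568659: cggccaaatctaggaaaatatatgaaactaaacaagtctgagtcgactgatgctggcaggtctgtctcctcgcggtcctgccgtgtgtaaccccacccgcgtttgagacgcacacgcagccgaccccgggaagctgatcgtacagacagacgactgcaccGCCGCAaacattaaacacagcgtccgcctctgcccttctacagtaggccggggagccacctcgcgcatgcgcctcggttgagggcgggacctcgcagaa
Mapk14 start peak, chr17:28828002-28828286: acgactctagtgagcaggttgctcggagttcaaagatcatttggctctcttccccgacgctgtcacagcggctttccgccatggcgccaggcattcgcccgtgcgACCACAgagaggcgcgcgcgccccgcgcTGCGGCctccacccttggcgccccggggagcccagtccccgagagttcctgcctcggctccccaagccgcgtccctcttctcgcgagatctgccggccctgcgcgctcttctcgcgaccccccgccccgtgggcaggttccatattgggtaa

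These stretches held 0 matches at the centre of the Map4k4 peak and at the start of Map3k3, 1 at the starts of Map3k14 and Map2k2, and 2 in the Map3k5 intron and at the start of Mapk14. The Map4k4 stretch with 6 matches is a tandem repeat: shifted by 56 bases against itself it was identical at 77% of positions, whereas the best shift of the other stretches gave 33.3 to 36.5%. The matches within it are thus not independent of one another.

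Among the MAP4K genes, Map4k4, which encodes the kinase HGK, held 5 Runx3 peaks, the most of any cascade gene by count. Its window was 135 kb long and held 3.69 peaks per 100 kb. The highest such value was 13.2, at Map2k7 in a window of 22.7 kb. Map4k4 lies at chr1:39957758-40083155 on the plus strand, and H3K4me1 covered 48.5% of its window in 13 regions. Its peaks were chr1:39953174-39954057, 4.14 kb upstream of the 5′ end, chr1:39959268-39960104 at +1.93 kb, chr1:39974470-39975087 at +17 kb, chr1:39993188-39993931 at +35.8 kb and chr1:40042681-40044442 at +85.8 kb. The 3 middle peaks were intronic, the last spanned a coding exon and its introns, and none lay under 1 kb from an annotated start. All 5 lay wholly in H3K4me1. The last was the widest of all peaks at cascade genes (1762 bp) and carried 9 RUNX matches, 6 of them in the repetitive stretch printed above. Both H3K4me1 regions of 10 kb or more, 12936 and 13718 bp wide, lay 5′ of the gene's middle, and the wider of them held no Runx3 peak.

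The other MAP4K genes held 1 peak or none. Map4k1, which encodes HPK1, a kinase of blood cells that restrains antigen receptor signalling, had a start peak of 654 bp wholly in H3K4me1, which covered 25.4% of the window. Map4k5, which encodes KHS, also had a start peak, with 5 RUNX matches, in a window covered to 8.49%. The peak at Map4k3, which encodes GLK, lay in an intron 95.6 kb from the 5′ end and was nearer to the start of Cdkl4 than to any Map4k3 start. Map4k2 had no peak.

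In the MAP3K tier Map3k8 stood first. It encodes Tpl2 (Cot), which phosphorylates MEK1 and MEK2 downstream of Toll-like and tumour necrosis factor receptors. The gene lies at chr18:4331325-4353013 on the minus strand, and H3K4me1 covered 68.3% of its window, the largest share of any cascade gene. It held a start peak (chr18:4352689-4353262), a peak over a noncoding exon and intron at +5.08 kb (chr18:4347464-4348398) and a peak over a coding exon at +19.2 kb (chr18:4333448-4334235). The H3K4me1 region of 10564 bp contained the middle peak. The start peak was covered to 31.4%, in the gap in front of this region, and the peak at +19.2 kb had no RUNX match.

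Map3k1, which encodes MEKK1, an activator of the JNK branch, had a single Runx3 peak but the widest H3K4me1 region of the cascade. The gene lies at chr13:112536636-112599201 on the minus strand. The region spanned 20310 bp of the 5′ part of the gene, and the peak (chr13:112586524-112587778, an intron, +12.1 kb) lay within it with 4 RUNX matches. Its start carried no peak.

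A further 4 MAP3K genes had 2 peaks each. Map3k14, which encodes NIK, the kinase that starts noncanonical NF-kappaB signalling, had a start peak and a peak 3′ of the gene by a start of 4933400C05Rik, and H3K4me1 covered 44.5% of the window. Map3k3 (MEKK3) had a start peak and one at the start of the neighbour Limd2, and Map3k2 (MEKK2) a start peak and one at the start of Ercc3. Both peaks of Map3k5, which encodes the stress-activated kinase ASK1, lay in introns near the 3′ part of the gene, 185 and 189 kb from its 5′ end and 5.16 and 1.13 kb from an internal annotated start. Map3k7, which encodes TAK1, the kinase of Toll-like and interleukin-1 receptor signalling, and Map3k4 (MEKK4) had 1 start peak each. The single peaks in the windows of Map3k11 (MLK3) and Map3k12 (DLK) lay at the starts of their neighbours Kcnk7 and Tarbp2. Of the relatives of these kinases, Map3k6 (ASK2), Map3k9 (MLK1) and Map3k10 (MLK2) had H3K4me1 without a peak, and Map3k13 (LZK) and Map3k15 (ASK3) had neither.

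Among the MAP2K genes 3 of 7 held a peak (42.9%), close to the 39.8% of all protein-coding genes. They were 1 gene of each pair for the ERK, JNK and p38 branches, a layout over few genes that was not tested. Map2k2 (MEK2), which acts in the ERK branch, held 3 peaks, and Map2k1 (MEK1) held none. Map2k2 lies at chr10:80568660-80587442 on the plus strand, with H3K4me1 over 25.6% of its window. Its start peak (chr10:80567964-80569138) carried 7 RUNX matches, 4 of the SP1 word GGGCGG and 64.8% H3K4me1 coverage. The other peaks lay 3′ of the gene, chr10:80590055-80590711 at +21.7 kb and chr10:80591722-80592523 at +23.5 kb, and the last was nearest to a start of Zbtb7a.

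Map2k7 (MKK7), which phosphorylates JNK, also held 3 peaks, and its partner Map2k4 (MKK4) held none. Map2k7 lies at chr8:4238740-4251423 on the plus strand, with H3K4me1 over 34.8% of its window. Its start peak (chr8:4238134-4239569) was 1436 bp wide and lay across the gap between a pair of H3K4me1 regions. The peaks at +14.3 kb (chr8:4252600-4253388) and +14.9 kb (chr8:4253427-4253863) were nearest to starts of Snapc2. Map2k3 (MKK3), which phosphorylates p38, had 1 intronic peak at +3.52 kb in a window covered to 37.6%, and Map2k6 (MKK6) had none. Map2k5 (MEK5), which phosphorylates ERK5, had H3K4me1 over 2.89% of its window and no peak.

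In the MAPK tier Mapk14, which encodes p38 alpha, held 4 Runx3 peaks, and H3K4me1 covered 33.7% of its window. It lies at chr17:28828287-28885349 on the plus strand. The peaks were chr17:28827731-28828573 (−0.135 kb from the 5′ end), chr17:28828866-28829651 (+0.972 kb), chr17:28834933-28835629 (+6.99 kb) and chr17:28839624-28840067 (+11.6 kb). The first and second lay under 1 kb from own starts and were covered by H3K4me1 to 61.2% and 25.3%, and the intronic others were covered wholly. An H3K4me1 region of 11217 bp touched the last 3 peaks, and the peak at +6.99 kb had none of the RUNX, ETS, AP-1 or SP1 words. The other p38 genes differed in layout. Mapk12 (p38 gamma) had 2 peaks, both nearest to Hdac10, in a window covered to 47.6%, and Mapk11 (p38 beta) and Mapk13 (p38 delta) had none, although H3K4me1 covered 47.9% of the Mapk11 window. Mapk11 and Mapk12 are neighbours and share a pair of H3K4me1 regions in their windows, 5789 and 2405 bp wide.

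Mapk3 (ERK1) held no peak, with 27.3% of its window covered. In the JNK branch Mapk8 (JNK1) and Mapk9 (JNK2) had 1 start peak each, and Mapk10 (JNK3, a kinase mainly of the nervous system) had neither a peak nor H3K4me1 in a window of 313 kb. The start peak of Mapk8 held 13 SP1 words, the most of any peak at a cascade gene. Mapk7 (ERK5) had a start peak that overlapped no H3K4me1 region, the only such peak at a cascade gene, and that held no RUNX match.

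Mapk6 (ERK3), an atypical MAP kinase, lies at chr9:75216869-75257812 on the minus strand. It held a start peak (chr9:75257568-75258368, 56.6% covered) and an intronic peak at +7.65 kb (chr9:75249714-75250606), the latter in an H3K4me1 region of 10260 bp. Mapk4 (ERK4) held 2 intronic peaks, 78.6 and 107 kb from its 5′ end, in a window covered to 5.75%, and the farther one was nearer to a start of Mro. Mapk15 had no peak, with 39.1% of its window covered. By branch, peaks lay at 2 of 3 JNK genes, 2 of 4 p38 genes, 1 of 1 ERK5 gene and 2 of 3 atypical genes. The share over all protein-coding genes was 39.8%, and branches of 1 to 4 genes are too small for a comparison. The p38 count includes Mapk12, whose peaks were nearest to Hdac10.

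**Figure D3:**
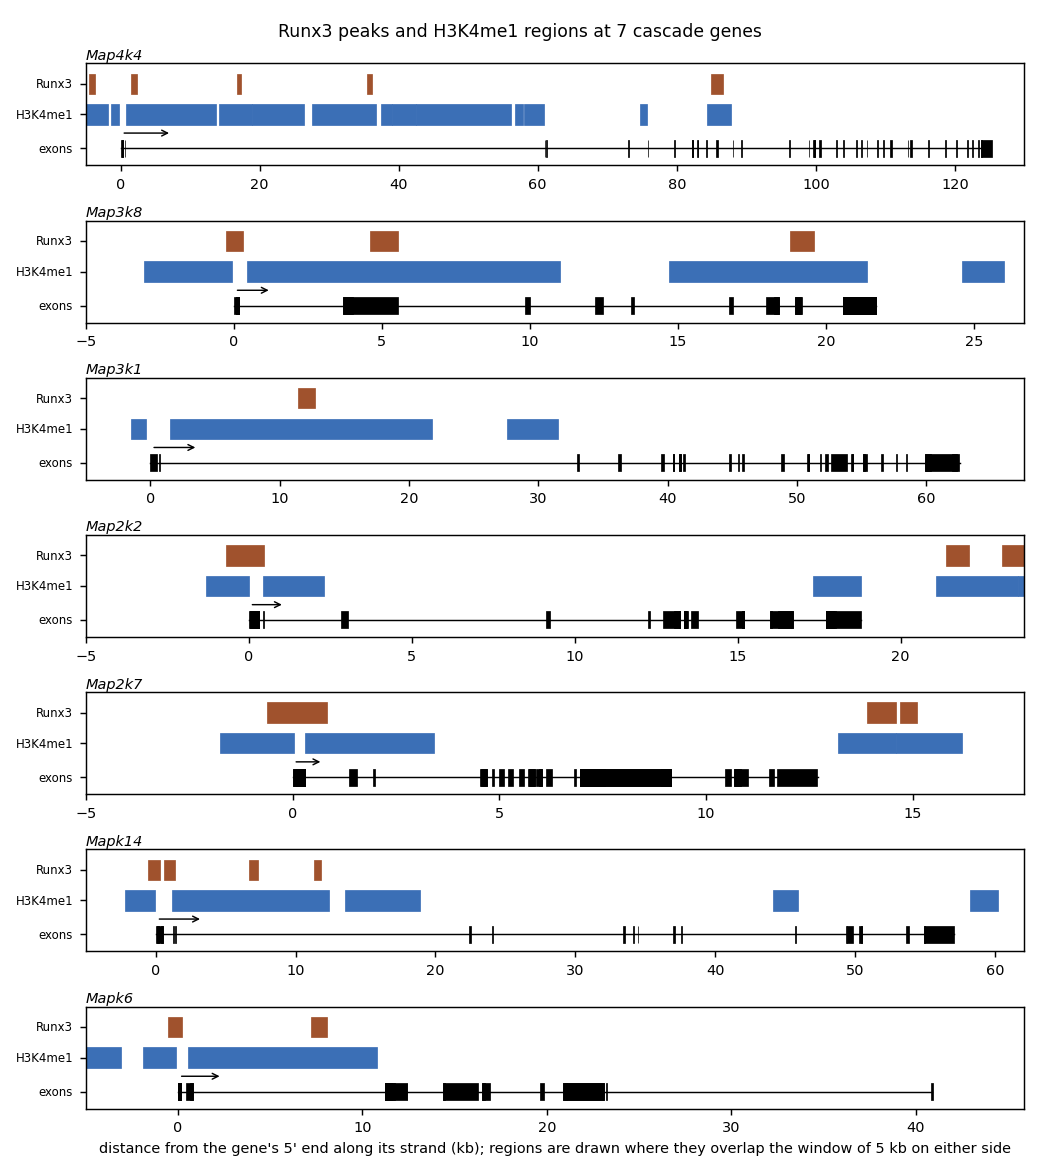
Maps of 7 cascade genes drawn to scale as distance in kb from the 5′ end along the gene's strand, with Runx3 peaks (brown), H3K4me1 regions (blue) and merged annotated exons (black). Map4k4 carries 5 peaks and none under 1 kb from its start, whereas the start peaks of Map3k8, Map2k2, Map2k7, Mapk14 and Mapk6 lie at gaps in H3K4me1.

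Of the 47 peaks, 17 lay under 1 kb from an own start, 18 elsewhere within the gene (14 in introns, 3 over a coding exon and 1 over a noncoding exon) and 12 in the flanks (3 upstream and 9 downstream). The nearest coding start was the cascade gene's own for 35 peaks and another gene's for 12. At 4 genes (Map4k3, Map3k11, Map3k12 and Mapk12) every peak in the window was nearer to another gene's start, so these genes were counted through the window only. Counting only peaks nearest to the gene's own start gave 21 of 40 cascade genes (52.5%), against 32% of all genes counted in the same way. Under 1 kb from any annotated TSS lay 25 peaks (53.2%, interval 39.2 to 66.7%), against 39.1% of all Runx3 peaks. More than 5 kb away lay 14 (29.8%, interval 18.7 to 44%), against 45.1%. A window around a gene favours peaks near starts, so these shares differ from those of the whole list by construction as well.

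H3K4me1 lay differently over peaks at starts and peaks within genes. All 18 peaks within genes lay wholly in an H3K4me1 region. Of the 17 start peaks, 2 lay wholly inside (Map4k1 and Map4k5), 14 partly and 1 outside, with a median of 61.2% of the peak covered. Of these 17, 7 (41.2%) touched a region on each side of a gap. Over all Runx3 peaks under 1 kb from any TSS the median was 80.1%, and 30.3% touched 2 or more regions. By distance to any TSS, 6 of 25 peaks under 1 kb away lay wholly in H3K4me1 (24%, interval 11.5 to 43.4%), against 32.1% of all such peaks, and 13 of 14 peaks more than 5 kb away did (92.9%, interval 68.5 to 98.7%), against 92.6%. Counting any shared base, 46 of 47 peaks at cascade genes (97.9%, interval 88.9 to 99.6%) overlapped H3K4me1, against 95.7% of all peaks. In the other direction, 51 of 182 H3K4me1 regions at cascade genes (28%, interval 22 to 34.9%) held a Runx3 peak, against 28.6% of all regions. Both intervals included the share of the whole list. For regions, a Runx3 peak counted over the full region, also where it lay outside the gene's window, as at Map4k2.

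**Figure D4:**
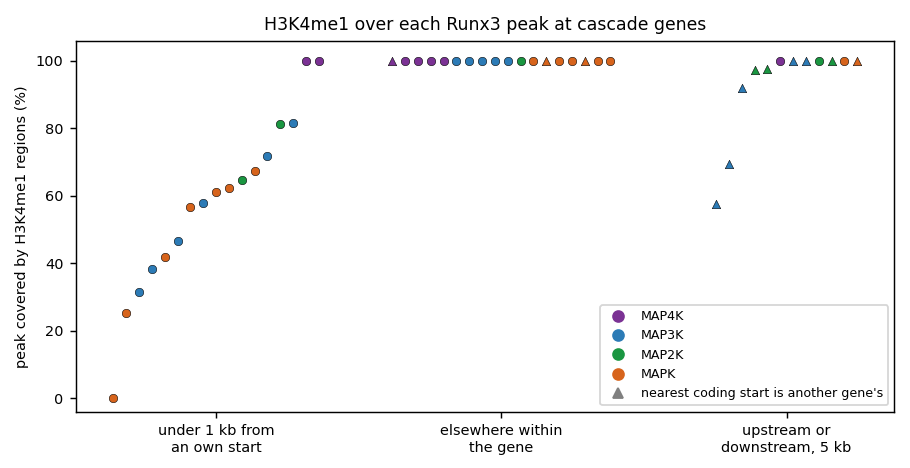
Share of each of the 47 Runx3 peaks at cascade genes that H3K4me1 regions cover (%, vertical axis), by place of the peak, coloured by tier. Triangles mark peaks whose nearest coding start is another gene's. Start peaks range from 0 to 100% with a median of 61.2%, and the 18 peaks elsewhere within genes are all at 100%.

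The RUNX consensus was found in 43 of 47 peaks (91.5%, interval 80.1 to 96.6%), against 93.3% of all Runx3 peaks. The 4 peaks without it were the 3′ peak of Map3k8, the start peaks of Mapk7 and Mapk9 and the peak of Mapk14 at +6.99 kb. Of its 4 words, TGTGGT was found in 55.3% of the peaks (65.5% of all peaks), TGTGGC in 53.2% (54.1%), TGCGGT in 31.9% (24.7%) and TGCGGC in 29.8% (26.1%), and the intervals of all 4 shares included the value of all peaks. The SP1 word GGGCGG lay in 28 peaks (59.6%, interval 45.3 to 72.4%), against 41.9% of all peaks. Among the 25 peaks under 1 kb from a TSS it lay in 23 (92%, interval 75 to 97.8%), against 77.2% of all such peaks, a value within the interval. In the central 200 bp of these peaks it lay in 17 of 25 (68%, interval 48.4 to 82.8%), against 43.6% of all such peaks, a value below the interval. ETS words (AGGAAGT and CGGAAGT) lay in 25 peaks (53.2%, interval 39.2 to 66.7%), against 41.8%, and AP-1 words (TGACTCA and TGAGTCA) in 7 (14.9%, interval 7.41 to 27.7%), against 16.5%. In the central 200 bp of the 47 peaks the shares were 17% for ETS, against 20.1% of all peaks, and 6.38% for AP-1, against 5.49%. The intervals were not adjusted for the number of motif shares compared. A match is a string of letters in the peak and was not tested as a site.

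Genes that feed into, hold or oppose the cascade were examined in the same way. Of kinases that act at the upper tiers under other symbols, 7 of 10 held a Runx3 peak, among them Braf with 1 and Taok2 with 2. Of scaffolds and binding partners 7 of 12 did, with 10 peaks at Ksr1, a scaffold of the ERK branch, 4 at Iqgap1 and 3 at Tab2, a partner of TAK1. Of the kinases that MAP kinases phosphorylate 6 of 11 did, and H3K4me1 covered 96.3% of the window of Mknk2, which phosphorylates the translation factor eIF4E. Of the dual-specificity phosphatases that switch MAP kinases off 6 of 10 did, with 3 peaks at Dusp2, 3 at Dusp5 and 2 at Dusp6, and H3K4me1 covered 68.9%, 83.5% and 81% of these windows. Of Ras activators and small G proteins 9 of 16 did, with 6 peaks at the adaptor gene Grb2, 4 at Rac2 and 3 at Vav1. H3K4me1 was present at 9 of 10, 12 of 12, 10 of 11, 10 of 10 and 16 of 16 genes of these lists, and at a median of 11.3%, 15.2%, 14.2%, 40% and 24.4% of the window. The peak shares of these lists were 54.5 to 70%. Their intervals, in the order above, were 39.7 to 89.2%, 32 to 80.7%, 28 to 78.7%, 31.3 to 83.2% and 33.2 to 76.9%, and each included the 39.8% of all genes. Median windows were 80.7, 57.7, 50.5, 19.8 and 54.1 kb, against 25.5 kb for all genes, and these lists were not read within length quartiles.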

How the data were processed

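The deposited files were 2 coordinate lists. Per the labels and the methods of the study, the authors fixed chromatin with 1% formaldehyde, sonicated it to about 300 bp and sequenced 40 bp reads. CASAVA 1.7 is among the tools in the submitters' processing notes. Per the methods, reads were aligned with ELAND to mm9, unique alignments were kept, the reads of the biological repeats were joined, and MACS called regions against NIS. The labels call each sample a first precipitation, and whether the deposited lists rest on it alone or on joined repeats cannot be read from them. The labels name sorting on NKp46 and the methods sorting on DX5. The lists hold positions and a running name without score, fold or read number, so the depth at a region is unknown.

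Regions were joined to the GENCODE M1 annotation with Python 3.11.15, numpy 2.4.6 and pysam 0.24.0, whose interval functions were tested on simulated data, and drawn with matplotlib 3.10.9. For each symbol the longest record was kept (22380 records, 22238 symbols, 22208 on chromosomes with regions). A region counted when it shared 1 bp with the gene and 5 kb on either side. Positions are 1-based on mm9. Named with positions were the genes with the most peaks in each tier and those with an H3K4me1 region of 10 kb or more, and the other genes with counts. The genes and lists were chosen with earlier results of these data known, so their shares are descriptions. A gene of the MAPK tier enters the counts and is not reported here by itself. Alternatives changed the flank, overlap rule, width minimum, start set and motif window.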

Additional observations from a re-analysis of the deposited data

How the results depend on the processing

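Of 33 alternative settings of 6 values, 25 stayed within the interval of the reported share or within 1.5 times the reported count. The share of cascade genes with a Runx3 peak (62.5%) became 85% with a flank of 20 kb, against 51.1% of all genes, and 45% when only 1 kb around the gene's own starts was counted, against 28.2%. The share with H3K4me1 (92.5%) became 97.5% with a flank of 20 kb, against 74.1%. In each alternative run, both shares of cascade genes were above those of all genes. None of these settings compared genes of like window length. Within quartiles of window length, the peak share of cascade genes was 40% at 14.7 to 25.5 kb, against 40.9% of all genes. It was 77.8% at 25.5 to 52.6 kb, against 48.9%, and 66.7% at 52.7 to 4445 kb, against 50.4%. In each of these quartiles the interval of the cascade genes, over 9 to 21 genes, included the share of all genes. Keeping only peaks wider than the median left 25 of the 47 peaks. The share of all 47 peaks that overlapped H3K4me1 (97.9%) became 80.9% when the midpoint had to lie in a region, 87.2% when 50% of the peak had to be covered, and 80.9% with H3K4me1 regions wider than the median only, against 83.6%, 88.4% and 78.9% of all Runx3 peaks. The share with the RUNX consensus (91.5%) became 63.8% in the central 200 bp, against 69.2%. Each of these settings is by construction wider or stricter. No paired analysis was possible because each antibody had 1 list and no test was run. The lists give no depth, so a gene without a peak may hold binding below the threshold of the peak caller. With 5 to 15 genes a tier the intervals were wide and overlapped, and differences between tiers were not tested.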
